A study of Saccharomyces cerevisiae with 8 samples.

Results

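The purine and one-carbon ADE regulon is a group of 10 Saccharomyces cerevisiae genes that are under the control of the transcription factors Bas1 and Pho2. The members were taken by systematic name: ADE1 (YAR015W), ADE2 (YOR128C), ADE4 (YMR300C), ADE5,7 (YGL234W), ADE6 (YGR061C), ADE8 (YDR408C), ADE13 (YLR359W), ADE17 (YMR120C), ADE3 (YGR204W) and MTD1 (YKR080W). They are 10 of the 10799 yeast features in the deposited table, and 10 of 10 passed the filter on low values, as did 9656 features in all.

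The series sequenced rRNA-depleted total RNA, with strand kept, from budding yeast grown in rich medium at 30 °C to an optical density of 0.5. Parental cells and cells with an FRB-GFP tag on the DEAD-box RNA helicase Dbp2 were each grown without rapamycin or given rapamycin at 1 µg/mL for 1 h, which makes 4 groups, and 2 biological replicates of each gave 8 libraries. In the anchor-away method rapamycin ties the FRB part of a tagged nuclear protein to FKBP12 on a ribosomal protein, and export of the ribosomal subunits takes the tagged protein along. The series title asks whether noncoding RNAs degraded by the exonuclease Xrn1 depend on nuclear Dbp2, and the ADE genes were measured in the same libraries.

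All 4 groups were of the W303 background and MATalpha, and carried the tor1-1 allele, a deletion of FPR1 marked with NAT, and RPL13A fused to FKBP12 with a TRP1 marker. They also shared the alleles trp1-1, his3-11,15 and ura3, a mutant allele of LEU2, can1-100 and ade 2-1, with GAL and the psi+ state. The tagged strain added DBP2-FRB-GFP with the KanMX6 marker. The ade 2-1 allele is a premature stop codon in ADE2, and the psi+ prion lets ribosomes read through stop codons. The ADE2 values below are therefore RNA of a mutant allele in parental and tagged cells alike.

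Purine nucleotides are built on a phosphoribosyl backbone in a chain of reactions that ends at inosine monophosphate (IMP), from which AMP and GMP branch. Folate-bound one-carbon units enter the purine ring along the way, and ADE3 and MTD1 supply and interconvert them. The Myb-type factor Bas1 and the homeodomain factor Pho2 join to activate these genes when the pathway intermediates SAICAR and AICAR build up, and adenine in the medium lowers their transcription.

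The binding core shared by Bas1 and by Gcn4, the activator of amino acid synthesis genes, has the letters TGACTC. The core was searched on both strands in the 500 bases before each start codon of the R64 reference genome, a window chosen after the data were seen. In it 10 of 10 members held the core, against 12.7% of 6000 nuclear protein-coding genes. The members were picked as genes under Bas1 control, so this share describes the list and is no independent support for that control. The members held 16 cores, of which 3 read on the other strand; 6 members held 2 cores and 4 held 1. In a narrower window of 250 bases before to 50 bases after the start codon the core was present in 8 of 10 members, with ADE4 and ADE6 lacking it, against 7.98% of 6001 genes. A match is a string in the S288C reference and not a measured binding site. The core nearest the start codon is printed for each member with 12 bases on each side, since it is the sequence that the members have in common; capitals mark the core, read 5′ to 3′ on the coding strand of the gene, where GAGTCA is the core on the other strand.
ADE4 (chrXIII:867431-867460, minus strand, 357 bases before the start codon): gacccgatgtatTGACTCttcctgaccgaa
ADE5,7 (chrVII:56286-56315, plus strand, 184 bases before): acaagtgccgacTGACTCgtgtcctggtaa
ADE8 (chrIV:1289009-1289038, minus strand, 167 bases before): actcgttgctagTGACTCtgacctgttttt
ADE6 (chrVII:616224-616253, minus strand, 276 bases before): ttcaaccgttccTGACTCtttcctgctgac
ADE2 (chrXV:566327-566356, minus strand, 153 bases before): atactaagtgatTGACTCttgctgaccttt
ADE1 (chrI:169146-169175, plus strand, 217 bases before): cacgagtcagtcTGACTCttgcgagagatg
ADE13 (chrXII:844054-844083, plus strand, 216 bases before): cctccgcgagcaGAGTCAaacttcaaacaa
ADE17 (chrXIII:509440-509469, minus strand, 177 bases before): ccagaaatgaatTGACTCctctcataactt
ADE3 (chrVII:905709-905738, plus strand, 213 bases before): atatatttgccaTGACTCctcccagtgaca
MTD1 (chrXI:590209-590238, plus strand, 174 bases before): attatgatatatTGACTCagtagaaaagga

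The MTD1 core printed above is the 1 core of 16 that is followed by A, which makes the Gcn4 heptamer TGACTCA. Each member is encoded in 1 uninterrupted coding part, and the cores lay 153 to 357 bases before the start codon.

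The libraries held 22523089 to 27500124 yeast reads, as recovered from the deposited values, and 2.93 to 4.44% of reads were spike-in RNA. DBP2, the gene that carries the tag, had a density of 2.52 ± 0.131 in untreated parental cells and 3.04 ± 0.0127 in untreated tagged cells (SD, n = 2), and RNA does not show whether the protein left the nucleus. On the spike-in scale most features were higher in tagged cells, with median log2 fold changes over all features of 0.36 without and 0.59 with rapamycin. Whether this reflects more RNA per cell or more cells per amount of spike-in cannot be told apart.

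The deposited value is a read density, that is, reads per nucleotide of the feature divided by a spike-in factor of the library, so levels can be compared between genes. ADE3, the cytoplasmic C1-tetrahydrofolate synthase, had the highest mean density over the 8 libraries at 3.76, followed by ADE5,7, which encodes a fused enzyme with GAR synthetase and AIR synthetase activities, at 3.59. ADE6, FGAM synthetase, followed at 2.95 and ADE13, adenylosuccinate lyase, at 2.28. ADE8 (GAR transformylase, 1.49), ADE4 (the amidotransferase of the first step, 1.38) and ADE1 (SAICAR synthetase, 1.37) lay close together. Neighbouring ranks overlapped in 3 of 4 groups for ADE3 and ADE5,7, in 3 of 4 for ADE8 and ADE4 and in 4 of 4 for ADE4 and ADE1, so those orders are not resolved. ADE17 (AICAR transformylase and IMP cyclohydrolase, 0.818), MTD1 (an NAD-dependent methylenetetrahydrofolate dehydrogenase, 0.456) and ADE2 (AIR carboxylase, 0.293) were the 3 lowest, and none of their groups overlapped those of the next gene in the order. The depth behind the lowest values was 468 to 622 reads per library for ADE2, and ADE6 had 9320 to 15512.

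**Figure D1:**
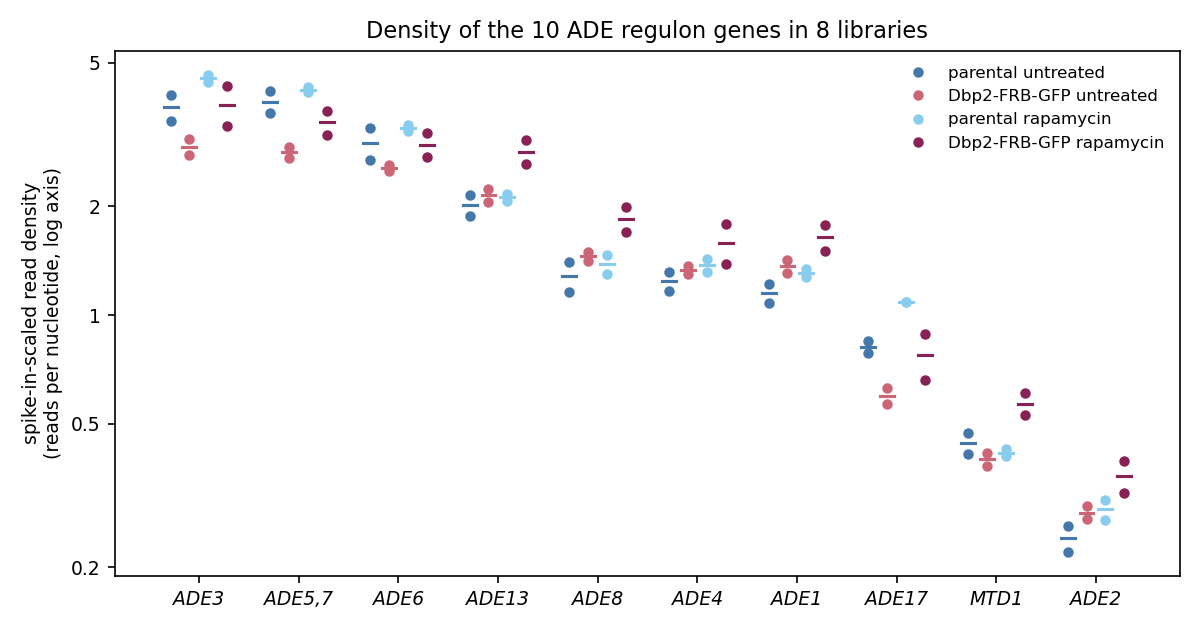
Spike-in-scaled read density (reads per nucleotide, log axis) of the 10 ADE regulon genes, ordered by mean level; points are libraries, coloured by group, and bars are means of the 2 libraries of a group. The levels span 0.221 for ADE2 to 4.63 for ADE3, and the spread between genes is much wider than the spread between groups of 1 gene.

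The comparison of the strains without rapamycin sets tagged against parental cells before nuclear depletion; what the tag did and what else differs between these strains cannot be told apart. On the deposited spike-in scale 3 of 10 members were lower in tagged cells at an adjusted p under 0.05 (limma) and 0 were higher (3 members had an unadjusted p under 0.05, and voom on recovered reads called the same numbers); over all 9656 features 2.75% were called lower and 43.7% higher. The lower members were ADE5,7, ADE17 and ADE3, and they were lower as well under every other scaling tried. The median of the 10 members was -0.03 on the log2 scale, against 0.36 over all features and 0.25 over protein-coding features. All 10 of 10 members lay below the median of all features. So did most genes of the linked pathways described below, from 4 of 6 in folate synthesis to 5 of 5 PRPP synthetase genes. Against the median of protein-coding features ADE1 was level, at 0.2484 against 0.2482. The densities of the untreated groups did not overlap for 7 of 10 members, as for 75% of all features.

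ADE5,7 had densities of 3.64 and 4.16 in untreated parental cells and 2.92 and 2.72 in untreated tagged cells. Both tagged libraries lay below both parental ones, a log2 fold change of -0.46 ± 0.14 (SE; limma adjusted p = 0.0085). The call was lost without parental untreated replicate 2 (adjusted p = 0.0539, limma) and without tagged untreated replicate 2 (adjusted p = 0.0981).

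ADE17 had densities of 0.783 and 0.849 in parental and 0.628 and 0.567 in tagged cells without rapamycin, and the groups did not overlap. Its log2 fold change was -0.45 ± 0.15 (limma adjusted p = 0.0216). The call was lost without parental untreated replicate 2 (0.0804), tagged untreated replicate 1 (0.0548) or tagged untreated replicate 2 (0.17, adjusted p in each case), and with no filter on low values (0.0557).

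ADE3 read 3.44 and 4.08 in parental and 3.08 and 2.77 in tagged cells, again without overlap. The log2 fold change of -0.36 ± 0.15 had a limma adjusted p of 0.0476, close to the threshold. Leaving out any of 5 of the 8 libraries ended the call, namely parental untreated replicate 2, both tagged untreated replicates and both parental rapamycin replicates, with adjusted p-values of 0.0672 to 0.272. It also ended with no filter, with no trend and with a replicate block (limma adjusted p = 0.0974, 0.0966 and 0.0756).

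The other 7 members did not pass the test without rapamycin. ADE6 stood at 2.68 and 3.30 in parental and 2.60 and 2.50 in tagged cells, which did not overlap (log2 fold change -0.22 ± 0.14; limma adjusted p = 0.201). ADE1 read 1.08 and 1.22 against 1.42 and 1.30, and ADE2 read 0.221 and 0.261 against 0.272 and 0.295. For both, each tagged library lay above each parental one on the spike-in scale, with log2 fold changes of 0.25 and 0.23 (limma adjusted p = 0.156 and 0.229), although both signs flipped after scaling to protein-coding features or snoRNAs. ADE8, at 1.16 and 1.40 in parental and 1.498 and 1.41 in tagged cells, gave 0.19 (adjusted p = 0.300), negative after scaling to protein-coding features or snoRNAs. ADE4 (0.10), ADE13 (0.09) and MTD1 (-0.15) had overlapping groups and limma adjusted p-values of 0.424 to 0.602, and the first 2 turned negative under the 3 other scalings.

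With rapamycin in both strains, when the tagged Dbp2 should be anchored outside the nucleus, members were called in both directions. Without rapamycin the log2 fold changes of the members also had both signs, from -0.46 to 0.25. No member passed the test of the interaction of strain and rapamycin given below, so a change of this pattern with rapamycin was not shown. On the spike-in scale ADE8, ADE13, MTD1 and ADE1 were called higher in tagged cells, but each sign flipped after scaling to protein-coding features or snoRNAs, and none of these 4 was called higher under quantile normalization. ADE5,7 and ADE17 were called lower, and their direction held under every scaling tried. These 4 higher and 2 lower members stand against 70.5% and 2.13% of all features, and the member median of 0.24 against 0.59 over all features and 0.49 over protein-coding ones. Again 10 of 10 members lay below the median of all features, as did most linked genes, from 4 of 6 folate to 5 of 5 PRPP synthetase genes. The groups did not overlap for 9 of 10 members, as for 86.9% of features.

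ADE17 had densities of 1.09 and 1.08 in parental and 0.886 and 0.660 in tagged cells with rapamycin. Both tagged libraries lay below both parental ones, with a log2 fold change of -0.50 ± 0.15 (limma adjusted p = 0.0063). Without tagged rapamycin replicate 2 the change was -0.29 (adjusted p = 0.0923, limma).

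ADE5,7 read 4.15 and 4.27 in parental and 3.67 and 3.15 in tagged cells, with no overlap and a log2 fold change of -0.31 ± 0.14 (limma adjusted p = 0.0474). That call was lost without any of 5 libraries: both tagged untreated replicates, both parental rapamycin replicates and tagged rapamycin replicate 2, with adjusted p-values of 0.0854 to 0.225, and with no trend, only the groups compared or a replicate block (0.0715 to 0.0974). ADE3, at 4.43 and 4.63 against 4.30 and 3.34, and ADE6, at 3.23 and 3.35 against 3.19 and 2.74, were below the parental libraries in both tagged libraries but did not pass the test (-0.26 and -0.15; limma adjusted p = 0.115 and 0.319).

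ADE13 read 2.07 and 2.16 in parental and 3.05 and 2.61 in tagged cells with rapamycin, and ADE8 read 1.30 and 1.47 against 2.00 and 1.70. Neither pair of groups overlapped on the spike-in scale, and both log2 fold changes were 0.42 (± 0.14 and ± 0.15; limma adjusted p = 0.0115 and 0.0150), although ADE13 turned to -0.08 and ADE8 to -0.08 after scaling to protein-coding features. The ADE13 call ended without parental rapamycin replicate 1, parental rapamycin replicate 2 or tagged rapamycin replicate 1, and the ADE8 call without the first or the last of these.

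MTD1 read 0.406 and 0.425 in parental and 0.607 and 0.529 in tagged cells with rapamycin. The groups did not overlap on the spike-in scale (log2 fold change 0.44 ± 0.15; limma adjusted p = 0.0116), and the change was -0.05 after scaling to protein-coding features. Leaving out parental rapamycin replicate 1 (0.0940) or tagged rapamycin replicate 1 (0.0782, adjusted p) ended that call. ADE1, at 1.28 and 1.34 against 1.78 and 1.501, passed at an adjusted p of 0.0497 (limma, log2 fold change 0.32 ± 0.14) and was called in the opposite direction, at -0.17, after scaling to protein-coding features. Its call on the spike-in scale ended without any of 5 libraries (both tagged untreated, both parental rapamycin and tagged rapamycin replicate 1), with adjusted p-values of 0.0884 to 0.281, and with a smaller pseudocount, no trend, only the groups compared or a replicate block (0.0502 to 0.0966). ADE2 (0.271 and 0.308 against 0.395 and 0.322) and ADE4 (1.31 and 1.43 against 1.78 and 1.38) gave 0.30 and 0.19 with limma adjusted p-values of 0.0939 and 0.239, and both were negative under the 3 other scalings.

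**Figure D2:**
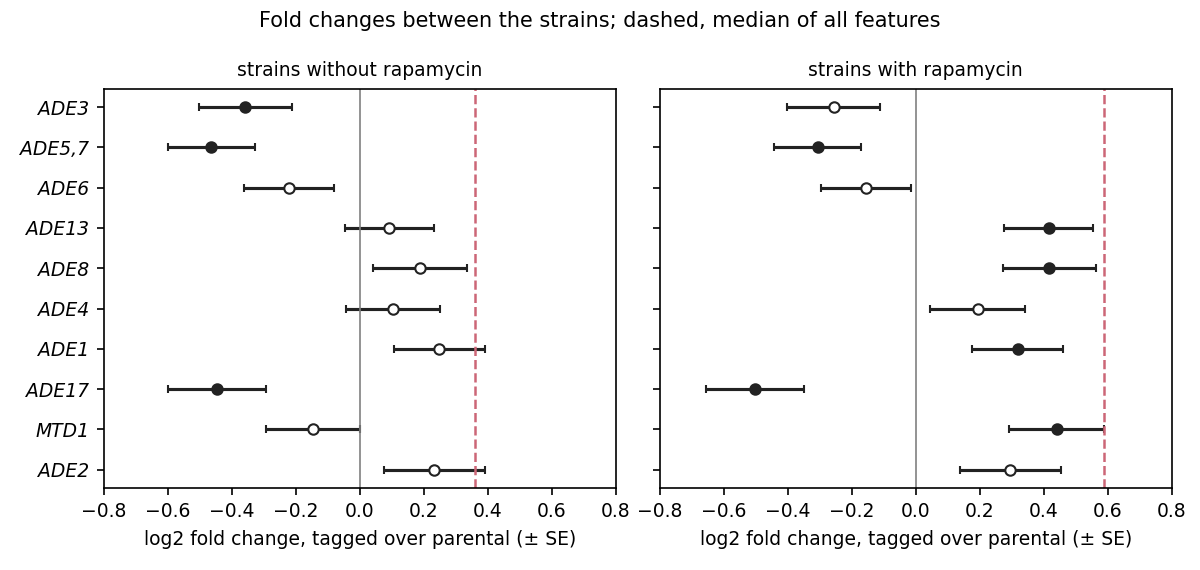
Log2 fold change of each member, tagged over parental cells, on the spike-in scale (x axis; points with SE from limma), in the comparisons without and with rapamycin; the dashed line is the median of all features (0.36 and 0.59). Every member lies to the left of the dashed line in both panels. ADE5,7, ADE17, ADE3 and ADE6 are below 0 in both and under every scaling tried, though only ADE5,7 and ADE17 were called in both panels. The points above 0 turn negative under at least 1 other scaling.

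The choice of scale moved the members as a group. After scaling to protein-coding features, 6 of 10 members were called lower without rapamycin and 6 with it, and 0 were higher; 14.4% and 18.1% of all features were called lower on that scale. Scaling to snoRNAs gave 7 and 4 members lower (20.4% and 10.5% of features), and quantile normalization gave 5 and 7 (19.5% and 23.2%), again with 0 higher. The members' median was -0.28 and -0.24 on the protein-coding scale, against 0.13 and 0.13 over all features. That scale is set to hold protein-coding features level, so the gap to all features, noncoding ones included, is wider than that to protein-coding features. On the spike-in scale the protein-coding medians (0.25 and 0.49) also lay below those of all features (0.36 and 0.59). The shares of features called lower likewise include noncoding ones. Since these scalings each assume that a class of RNA, or the distribution of all RNA, is equal in every library, they measure a member relative to that class and not per spike-in.

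On the protein-coding scale ADE5,7 was lower by -0.72 without and -0.80 with rapamycin on the log2 scale, ADE17 by -0.70 and -0.99, ADE3 by -0.61 and -0.75, and ADE6 by -0.47 and -0.65. These 4 genes were called lower in both comparisons of the strains on all 3 of the other scalings. On the protein-coding scale their calls also remained when each of the 8 libraries was left out in turn, an alternative added after the data were seen. ADE17 then ranged from -0.75 to -0.64 without rapamycin and from -1.09 to -0.90 with it, and ADE5,7 from -0.74 to -0.70 and from -0.83 to -0.78. The other calls on that scale were of MTD1 (-0.39) and ADE13 (-0.16) without rapamycin and of ADE4 (-0.30) and ADE1 (-0.17) with it. The ADE13 call was lost without either parental untreated replicate or tagged untreated replicate 2 (limma adjusted p = 0.0576 to 0.105), and the ADE1 call without parental rapamycin replicate 1 (0.0546).

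**Figure D3:**
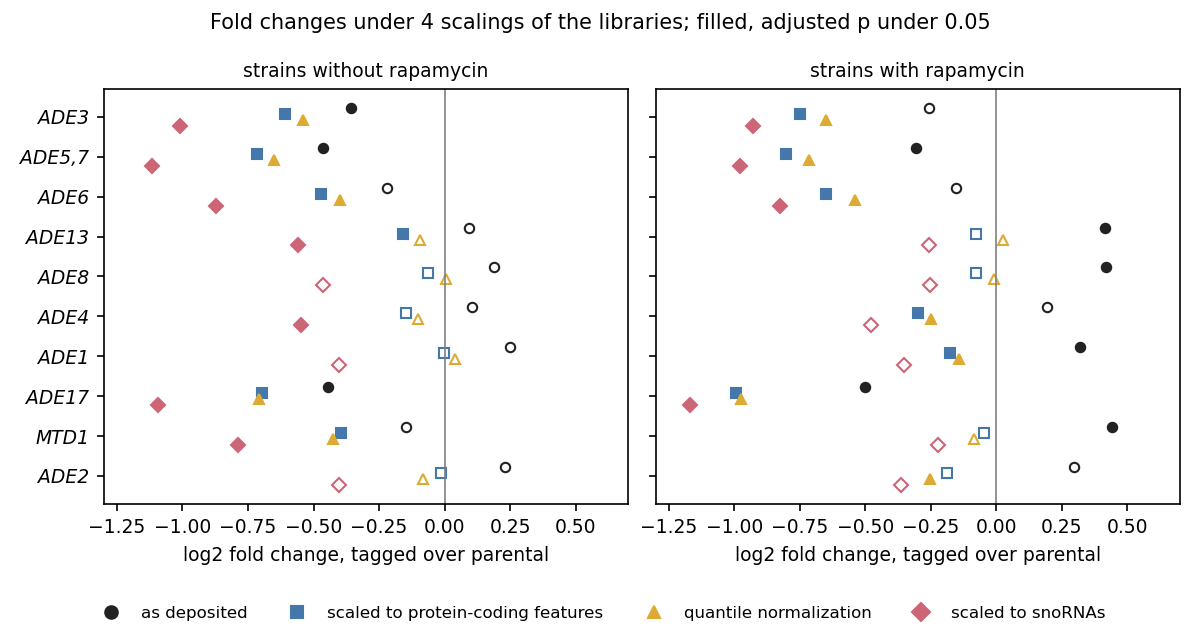
Log2 fold change of each member, tagged over parental cells (x axis), under 4 scalings of the libraries, without and with rapamycin; filled points have a limma adjusted p under 0.05. ADE5,7, ADE17, ADE3 and ADE6 lie below 0 under all 4 scalings in both panels, whereas ADE1, ADE2, ADE4, ADE8 and ADE13 lie above 0 on the spike-in scale and at or below 0 on the protein-coding and snoRNA scales.

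A member's level relative to the other members of the same library does not depend on the factor by which the library was divided, although quantile normalization, which is no single factor, alters it. Relative to the mean of the 10 log2 densities in a library, 9 of 10 members did not overlap between the 4 parental and the 4 tagged libraries, MTD1 being the exception. On the same measure 76.1% of all 9656 features did not overlap, so such a separation between the strains was common. The relative levels sum to 0 by construction, so a lower value of some members raises the others. On average ADE17 went from -0.55 in parental to -1.03 in tagged libraries, ADE5,7 from 1.56 to 1.17, ADE3 from 1.58 to 1.27 and ADE6 from 1.19 to 0.99. ADE8 went from -0.05 to 0.25, ADE1 from -0.17 to 0.11, ADE2 from -2.38 to -2.12, ADE13 from 0.58 to 0.83 and ADE4 from -0.08 to 0.07.

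As shares of the summed density, ADE5,7 made up 20.9 to 22.1% in the 4 parental and 17.0 to 17.8% in the 4 tagged libraries. ADE17 made up 4.42 to 5.57% and 3.68 to 4.09%, and ADE3 20.9 to 22.7% and 18.1 to 19.9%. ADE8 made up 6.63 to 7.30% in parental and 9.12 to 9.48% in tagged libraries, and ADE13 10.6 to 11.4% and 13.4 to 14.6%. The shares of ADE6 (16.3 to 17.2% and 14.7 to 16.4%) and MTD1 (2.08 to 2.51% and 2.49 to 2.95%) overlapped between the strains. The summed density itself was 17.8 ± 1.94 and 15.9 ± 0.799 without rapamycin and 20.0 ± 0.656 and 19.8 ± 2.64 with it, parental before tagged (SD, n = 2).

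The pattern can also be written as ratios of gene pairs, which were chosen for it after the values were seen and are no further evidence of it. ADE5,7 over ADE8, enzymes of neighbouring steps, was 3.14, 2.97, 3.21 and 2.91 in the parental libraries and 1.95, 1.93, 1.84 and 1.86 in the tagged ones. The ratio of ADE17 to ADE16, its paralog for the same reaction, was 0.498, 0.453, 0.584 and 0.549 in parental and 0.303, 0.307, 0.324 and 0.260 in tagged libraries. The coding sequences of ADE16 and ADE17 are 74.7% identical with a longest shared run of 19 bases, so few reads could fit both.

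**Figure D4:**
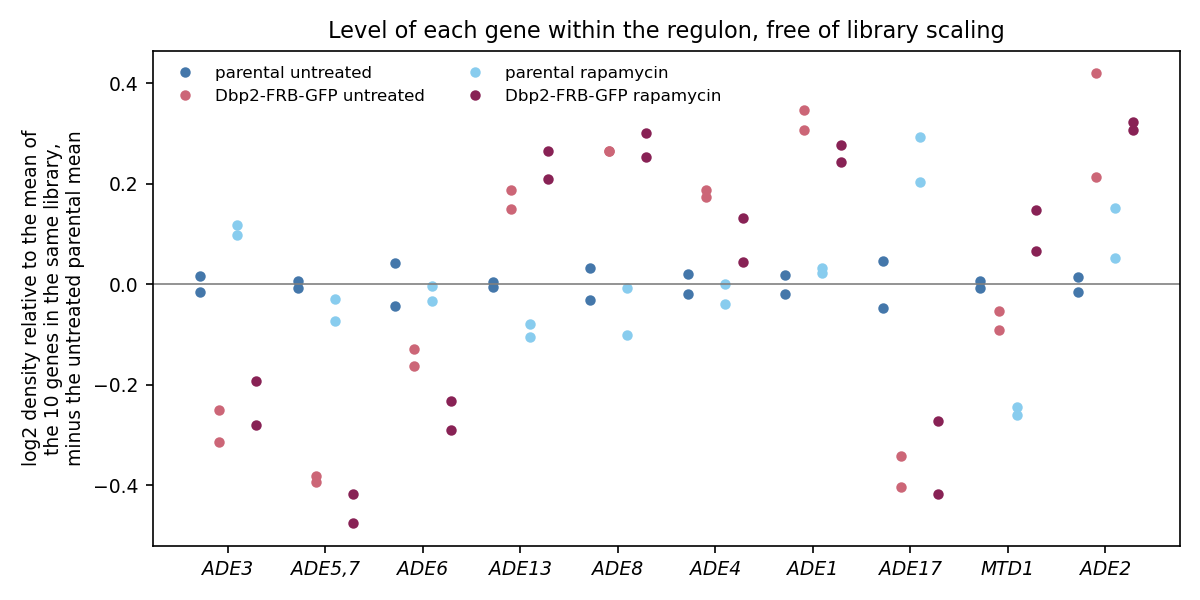
Log2 density of each member relative to the mean of the 10 members in the same library, minus its untreated parental mean (y axis, free of library scaling); points are libraries, coloured by group. ADE17, ADE5,7, ADE3 and ADE6 are lower in the 4 tagged than in the 4 parental libraries, and ADE1, ADE2, ADE4, ADE8 and ADE13 are higher, which the zero sum of the relative levels in part imposes.

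Rapamycin for 1 h in parental cells, which hold no FRB-tagged protein and carry tor1-1, a TOR1 allele known for resistance to the drug, left 0 members called higher and 0 lower by limma or by voom, as 0.0207% and 0.0104% of all features were. Adjusted p-values of the members were 0.610 to 0.927 (limma), and 1 member had an unadjusted p under 0.05. That was ADE17, at 0.783 and 0.849 without and 1.09 and 1.08 with rapamycin, which did not overlap (log2 fold change 0.41 ± 0.15; limma adjusted p = 0.610).

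In tagged cells 1 of 10 members was called higher with rapamycin on the spike-in scale and 0 lower, against 13.7% and 0.145% of all features. It was MTD1, which read 0.416 and 0.381 without and 0.607 and 0.529 with the drug (log2 fold change 0.50 ± 0.15; limma adjusted p = 0.0378), a call absent on each of the 3 other scalings. It also ended without tagged untreated replicate 1 or 2 or tagged rapamycin replicate 1, and with no filter, no trend or a replicate block (limma adjusted p = 0.0549 to 0.0864), while leaving out tagged rapamycin replicate 2 raised the count of higher members to 9. The member median of 0.33 was close to the 0.32 of all features, and the adjusted p-values of the members ran from 0.0378 to 0.213 (limma).

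No member passed the test, by limma or by voom, of the interaction of strain and rapamycin, in which 0.0311% and 0.0104% of all features were called higher and lower. MTD1 had the smallest adjusted p among the members (log2 difference of 0.59 ± 0.21; limma adjusted p = 0.429), and it was the 1 member with an unadjusted p under 0.05. The comparisons of the strains and of rapamycin share libraries, and their values are given side by side for that reason without a test of likeness.

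Of the genes for the pathway steps outside the regulon, ADE12, adenylosuccinate synthase on the branch to AMP, read 2.57 and 2.79 in untreated parental and 2.32 and 2.13 in untreated tagged cells. These groups did not overlap, but the log2 fold change of -0.27 did not pass (limma adjusted p = 0.135). ADE16 read 1.87 and 1.97 in parental and 2.74 and 2.54 in tagged cells with rapamycin, a rise of 0.46 ± 0.14 on the spike-in scale (limma adjusted p = 0.00642) that was negative after scaling to protein-coding features (-0.04) or snoRNAs (-0.21). That call ended without parental rapamycin replicate 1 (adjusted p = 0.0767). No core TGACTC was found in the 500 bases before ADE16, and ADE12 held 2.

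Beside the counts below, 43.7% of all features were called higher without and 70.5% with rapamycin, and 2.75% and 2.13% lower. In the GMP branch, 1 of 4 genes was called lower in each comparison of the strains and 0 higher. It was IMD2, an IMP dehydrogenase, at -0.38 ± 0.15 without and -0.35 ± 0.15 with rapamycin (limma adjusted p = 0.0384 and 0.0376). Each IMD2 call ended without any of 5 libraries, with adjusted p-values of 0.061 to 0.297, and with no filter, no trend or a replicate block (0.0557 to 0.0697). Among 11 genes of purine salvage and interconversion 2 were higher and 1 lower without rapamycin, and 6 were higher with it. FCY1, cytosine deaminase, stood at 0.54 and 0.79 on the log2 scale but at -0.11 and 0.11, not called, after scaling to snoRNAs. GUK1, guanylate kinase, stood at 0.35 and 0.53 (-0.31 and -0.14 after scaling to snoRNAs, and not called on any of the 3 other scales), and ADO1, adenosine kinase, at -0.35 without rapamycin. AAH1, adenine deaminase, stood at 0.59 with rapamycin (0.098 after scaling to protein-coding features and -0.08 to snoRNAs, neither called). Without rapamycin the FCY1 call ended when parental untreated replicate 1 was left out, that of ADO1 without any of 3 libraries (and with no trend or a replicate block) and that of GUK1 without any of 5, and with rapamycin those of GUK1, AAH1 and PRS4 ended without parental rapamycin replicate 1. Without tagged rapamycin replicate 1 the AAH1 and PRS4 calls ended too, at 0.28 and 0.31 (limma adjusted p = 0.122 and 0.0896). Of the 5 PRPP synthetase genes, which make the substrate of ADE4, 0 were called without rapamycin and 4 were higher with it on the spike-in scale, PRS4 by 0.50 (0.0059 after scaling to protein-coding features and -0.17 to snoRNAs).

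Of 10 one-carbon genes outside the regulon 2 were higher without and 3 with rapamycin, and 0 were lower, where 43.7% and 70.5% of all features were called higher. GCV3, the H protein of the glycine cleavage system, read 5.25 and 5.72 in untreated parental and 10.6 and 9.90 in untreated tagged cells, without overlap (log2 fold change 0.90 ± 0.13; limma adjusted p = 1.7e-05). GCV1, the T protein of the same complex, changed by 0.71 without and 0.98 with rapamycin, and both calls without rapamycin were lost after scaling to snoRNAs, where GCV3 was at 0.25 and GCV1 at 0.06 (limma adjusted p = 0.327 and 0.847). With rapamycin GCV1 was at 0.31 on that scale (adjusted p = 0.315), while the GCV3 call remained. In folate synthesis 1 of 6 genes was higher without and 3 with rapamycin, among them MET7, folylpolyglutamate synthetase, at 0.46 and 0.85, which was not called after scaling to snoRNAs (-0.18 and 0.18) and lost its call without rapamycin when any of 3 libraries was left out. FAU1, which recycles formyl-tetrahydrofolate, was at 0.77 and FOL3, dihydrofolate synthetase, at 0.66 with rapamycin, neither of them called under quantile normalization or after scaling to snoRNAs (0.11 and -0.0061).

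Serine synthesis feeds the one-carbon pool, and 2 of its 4 genes were lower in both comparisons, with 1 higher with rapamycin. Of all features 2.75% and 2.13% were called lower, and 43.7% and 70.5% higher, without and with rapamycin. SER3, a 3-phosphoglycerate dehydrogenase, read 0.860 and 0.934 in parental and 0.543 and 0.497 in tagged cells without rapamycin (log2 fold change -0.78 ± 0.15; limma adjusted p = 2.6e-04), and its paralog SER33 stood at -0.49, a call lost without parental or tagged untreated replicate 2. With rapamycin SER33 was at -0.33, a call lost without any of 5 libraries (limma adjusted p = 0.0772 to 0.227) and with no filter, no trend, only the groups compared or a replicate block (0.0527 to 0.0845). Histidine synthesis shares the intermediate AICAR with the purine pathway. Of its 7 genes 1 was called lower in each comparison, and 2 were called higher without and 3 with rapamycin, on the spike-in scale. HIS4 was lower and HIS5 and HIS6 were higher in both comparisons. HIS7 read 0.514 and 0.626 in parental and 0.599 and 0.588 in tagged cells without rapamycin, and these groups overlapped. HIS4, a multifunctional enzyme, read 1.62 and 1.82 in parental and 0.917 and 0.890 in tagged cells without rapamycin, a fall of -0.92 ± 0.14 on the log2 scale (limma adjusted p = 2.6e-05). HIS5 was at 0.44 and HIS6 at 0.56 without rapamycin, both negative after scaling to snoRNAs (-0.21 and -0.09), and both calls ended without parental untreated replicate 1 (adjusted p = 0.121 and 0.0912, limma). The HIS5 call also ended without tagged untreated replicate 1 (0.149) or 2 (0.0595), and after scaling to snoRNAs neither gene was called with rapamycin (0.19 and 0.14).

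**Figure D5:**
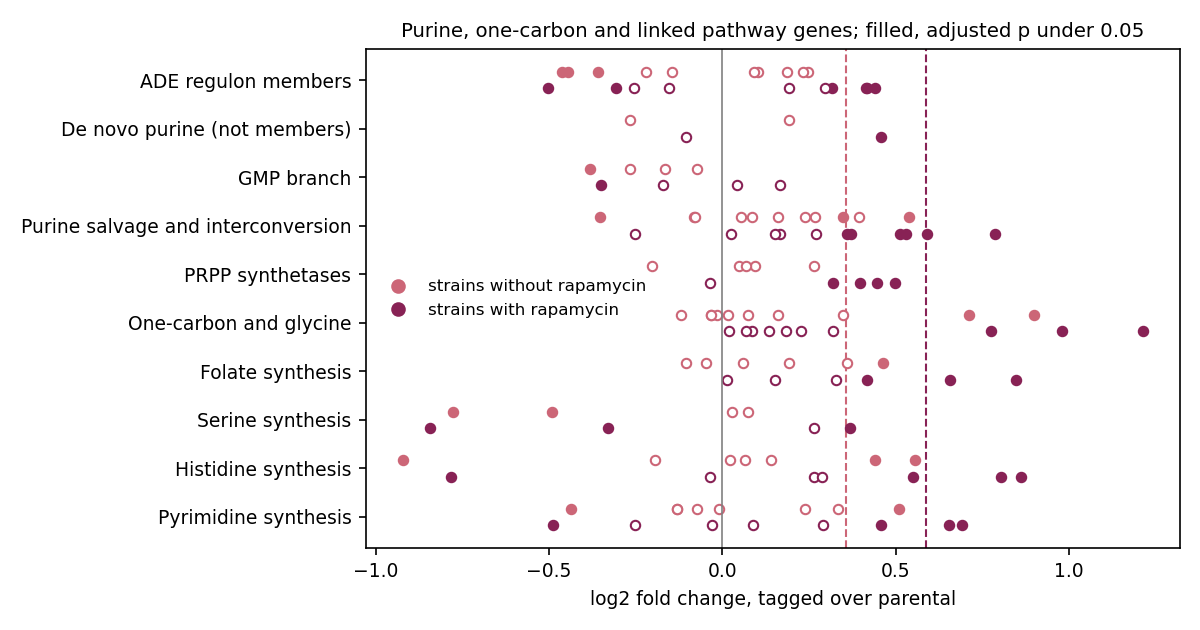
Log2 fold change, tagged over parental cells on the spike-in scale (x axis), of the members and of the genes of linked pathways (rows), without and with rapamycin; filled points have a limma adjusted p under 0.05. Dashed lines are the medians of all features (0.36 and 0.59). The members lie to the left of them, GCV3 and GCV1 to the right, and HIS4 and SER3 furthest to the left among the genes drawn. Most linked genes also lie to the left. Without rapamycin these were 2 of 2 other de novo, 4 of 4 GMP branch, 9 of 11 salvage, 5 of 5 PRPP synthetase and 8 of 10 one-carbon genes. They were also 4 of 6 folate, 4 of 4 serine, 5 of 7 histidine and 7 of 8 pyrimidine genes. After scaling to snoRNAs the HIS4 and SER3 calls remained, whereas without rapamycin GCV3 and GCV1 were at 0.25 and 0.06 and not called.

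The regulators themselves were low. BAS1 had densities of 0.185 and 0.213 in untreated parental and 0.230 and 0.233 in untreated tagged cells, with a log2 fold change of 0.21 that did not pass (limma adjusted p = 0.301) and was negative under the 3 other scalings. PHO2 read 0.178 and 0.195 in parental and 0.273 and 0.242 in tagged cells with rapamycin, called higher by 0.45 ± 0.15 on the spike-in scale (limma adjusted p = 0.0111) but at -0.03 after scaling to protein-coding features. The PHO2 call ended without parental or tagged rapamycin replicate 1 (0.113 and 0.0775, adjusted p). GCN4 was higher by 0.60 without and 0.74 with rapamycin on the spike-in scale, and not called after scaling to snoRNAs (-0.05 and 0.06).

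PHO5 and HO need Pho2 with partners other than Bas1: Pho4 for the acid phosphatase PHO5 and Swi5 for the mating-type endonuclease HO. PHO5 read 9.44 and 10.6 in parental and 2.11 and 1.81 in tagged cells without rapamycin, and HO read 0.1595 and 0.1897 against 0.0259 and 0.0305. Neither pair of groups overlapped, as for 75% of all features. The log2 fold changes were -2.35 ± 0.14 and -2.36 ± 0.18 without rapamycin and -2.53 and -2.35 with it (limma adjusted p of at most 2.9e-09). HO rested on 34 to 377 reads per library. Both genes were listed with earlier results of these data known, and whether Pho2 activity differed between the strains was not tested. Neither gene held the core TGACTC in the 500 bases before its start codon. Pyrimidine synthesis, given for comparison, had 1 of 8 genes higher and 1 lower without rapamycin and 3 and 1 with it. The shares over all features were 43.7% higher and 2.75% lower without rapamycin, and 70.5% and 2.13% with it. URA8, a CTP synthase, was the lower one at -0.44 and -0.49. URA10, an orotate phosphoribosyltransferase, stood at 0.51 and 0.69 and was not called on any of the 3 other scales (-0.11 and 0.049 after scaling to snoRNAs). Without rapamycin the URA8 call ended without any of 3 libraries and that of URA10 without tagged untreated replicate 1.

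Across the linked pathways the core TGACTC was present in the 500 bases before 6 of 7 histidine, 3 of 4 serine, 6 of 10 one-carbon and 3 of 6 folate genes. It was present before 1 of 2 de novo purine genes outside the regulon, 3 of 8 pyrimidine, 3 of 11 salvage, 1 of 4 GMP branch and 0 of 5 PRPP synthetase genes. All 10 members held the core in this window, so its presence could not separate the 4 genes with negative fold changes under each of the 4 scalings in both comparisons from the other 6. In the window of 250 bases before to 50 bases after the start codon, ADE6, which is 1 of these 4, and ADE4, which is not, lacked it.

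The genes beside the members on the chromosome show how their surroundings behaved. Of 20 flanking genes 19 were tested, and 5 were called higher and 0 lower without rapamycin, 10 and 0 with it, on the spike-in scale, where 43.7% and 70.5% of all features were called higher. The median of the flanking genes was 0.21 and 0.46, against -0.03 and 0.24 for the members. Downstream of ADE3, YGR204C-A was at 0.78 without rapamycin on 3 to 10 reads per library, and it was not called by voom (limma adjusted p = 0.0812) or on any of the 3 other scales (0.56, 0.20 and 0.16 for protein-coding features, snoRNAs and quantiles). VPS38, downstream of ADE13 on the same strand, was at 0.59 (-0.05 after scaling to snoRNAs). KIN3 beside ADE1 (0.51), DYN3 beside ADE4 (0.53) and RPF2 beside MTD1 (0.45) were the other calls without rapamycin, and their values were -0.12, -0.10 and -0.20 after scaling to snoRNAs. Leaving out 1 library ended each of these calls except that of VPS38. Of the genes that share an upstream region with a member in divergent orientation, BUD14 beside ADE1 (0.21), SIZ1 beside ADE8 (-0.17) and TRZ1 beside MTD1 (0.13) did not pass without rapamycin (limma adjusted p = 0.253 to 0.517), and YLR358C beside ADE13 was not tested. With rapamycin TRZ1 was called higher on the spike-in scale, at 0.46 (limma adjusted p = 0.0125). BUD14 (0.29) and SIZ1 (0.14) were not called there (limma adjusted p = 0.0884 and 0.470).

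Over the 8 libraries the log2 density of each member was correlated with the mean of the other 9, from r = 0.43 for ADE5,7 and 0.47 for ADE17 to 0.84 for ADE4, as a description. Among 5678 other protein-coding genes the profiles most like the mean of the 10 members were those of RSC6 (r = 0.996), LAT1 (0.993), SFB3 (0.992), SPO14 (0.992) and YRR1 (0.991). None of these genes was called in either comparison of the strains, with log2 fold changes of -0.12 to -0.05 without and 0.07 to 0.11 with rapamycin. The mean profile joins members whose fold changes have both signs, so a high r is not likeness to each member. All of these correlations share the libraries and their spike-in factors, which move every gene of a library together.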

How the data were processed

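Per the file headers, the deposited signal is a read density for each feature, with 1 column per library. The submitters' processing notes name Trim Galore, HISAT2 2.2.0, featureCounts 2.0.0, DESeq2 and the R64 build. Whether strand was used in counting is not stated in them, so reads of a gene and of an overlapping antisense transcript may not be told apart. Each value equals a whole number of reads over a length and over a library factor that equals the median-of-ratios factor of the 92 spike-ins; 100% of positive values came out whole within 0.01 reads, partly by construction, since a length of up to 40000 was searched, and reads may be low by a common factor.

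Densities plus 0.00721 (the 5th percentile of positive values) were log2-transformed and tested with limma 3.58.1 in R 4.3.3, with a trend, 4 group means and 1 spread over 8 libraries, which has 4 residual degrees of freedom and 18 from the prior. Spike-ins, and features whose mean density was under 0.0133, were left out. Tests were two-sided with Benjamini-Hochberg adjustment over 9656 features at 0.05. With the pseudocount added, a fold change understates the change of a gene with a low density. The p-values rest on the spread between the 2 biological replicates per group that the design text states, pooled over the 4 groups. The 18 degrees of freedom of the prior outweigh the 4 residual ones, so the spread of other features enters each p-value as well. An exact permutation test of 2 against 2 libraries cannot reach 0.05 and was not run.

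The members and gene lists were chosen with earlier results of these data known. Named genes were the members, BAS1, PHO2, ADE16, ADE12, up to 4 called genes per pathway list by adjusted p, called or divergent flanking genes, and the 5 most like profiles. Motif windows were cut from the R64 reference sequence, and the 500-base window was chosen after the data were seen. Alternatives were other pseudocounts, filter, scalings, trend, samples, a replicate block, voom on recovered reads and each library left out. The test was also run on simulated data. These had independent features and known library factors, so they do not cover an error of scale shared by all genes of a library. Python 3.11.15, numpy 2.4.6, pandas 2.3.3, Biopython 1.88 and matplotlib 3.10.9 were used.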

Additional observations from a re-analysis of the deposited data

How the results depend on the processing

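The scale decided the direction of most members. Scaled to protein-coding features, log2 fold changes between the strains turned without rapamycin to ADE1 -0.0022, ADE2 -0.013, ADE4 -0.15, ADE8 -0.064, ADE13 -0.16, BAS1 -0.032 and ADE16 -0.060, and with rapamycin to ADE1 -0.17, ADE2 -0.19, ADE4 -0.30, ADE8 -0.076, ADE13 -0.078, MTD1 -0.047, BAS1 -0.21, PHO2 -0.027 and ADE16 -0.036. Scaled to snoRNAs, they turned without rapamycin to ADE1 -0.40, ADE2 -0.40, ADE4 -0.55, ADE8 -0.46, ADE13 -0.56, BAS1 -0.42, PHO2 -0.33, ADE16 -0.46, FCY1 -0.11, GUK1 -0.31, MET7 -0.18, HIS6 -0.090, HIS5 -0.21, GCN4 -0.048, URA10 -0.11, KIN3 -0.12, DYN3 -0.10, VPS38 -0.046 and RPF2 -0.20, and with it to ADE1 -0.35, ADE2 -0.36, ADE4 -0.48, ADE8 -0.25, ADE13 -0.26, MTD1 -0.22, BAS1 -0.38, PHO2 -0.20, ADE16 -0.21, GUK1 -0.14, AAH1 -0.079, PRS4 -0.17 and FOL3 -0.0061. Under quantile normalization they turned without rapamycin to ADE2 -0.081, ADE4 -0.10, ADE13 -0.093, BAS1 -0.11, PHO2 -0.050 and ADE16 -0.0309, and with it to ADE1 -0.14, ADE2 -0.25, ADE4 -0.25, ADE8 -0.0074, MTD1 -0.084, BAS1 -0.30 and PHO2 -0.14. With 1 library left out in turn, ADE12 with rapamycin ranged from -0.30 to 0.091 (positive without tagged rapamycin replicate 2), ADE13 without rapamycin from -0.00778 to 0.19 (negative without parental untreated replicate 1) and MTD1 with rapamycin in parental cells from -0.18 to 0.011 (positive without parental untreated replicate 2). Members lower without rapamycin numbered 3, and 1 with no filter, 6, 7 and 5 scaled to protein-coding features, snoRNAs and quantiles, and 0 to 3 with a library left out; their median went from -0.03 to -0.28, -0.67 and -0.25. With rapamycin, 4 members higher became 0 on each of these 3 scales and 0 to 6 with a library left out, and 2 lower became 6, 4 and 7, or 1 with no trend and 1 with only the groups compared, and 0 to 3; the median went from 0.24 to -0.24, -0.42 and -0.25, and to 0.081 to 0.41 with a library left out. For rapamycin in tagged cells, 1 member higher became 2 with a pseudocount of 0.05, 3 with voom, 0 with no filter, with no trend and on each of the 3 scales, and 0 to 9 with a library left out; the median of 0.33 became -0.016 on the protein-coding and -0.024 on the quantile scale, and 0.17 to 0.46. The interaction median of 0.10 became -0.15 and -0.12 on those scales and -0.048 to 0.27. The cause was not tested. Deviations of same-numbered replicates from their group means had correlations over features of -0.134 to 0.151, so little pairing by number was seen feature by feature. Such a correlation leaves out a shift common to a whole library, so whether same-numbered libraries were prepared together was not tested. A replicate block left 2 members lower without rapamycin, 3 higher and 1 lower with it, and 0 higher for rapamycin in tagged cells; numbers crossed in the treated tagged cells left 4 higher and 2 lower. With 1 library of a group left out, the other is assumed to vary like the rest. Outliers cannot be tested in groups of 2.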
